A study of Mus musculus with 9 samples.

Results

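This report covers the BMP ligands *Bmp2*, *Bmp3*, *Bmp4* and *Bmp6*, the ID genes *Id1*, *Id2*, *Id3* and *Id4*, and *Smad6* in MC3T3-E1 cells treated with organic or inorganic phosphate. These 9 genes of the 55416 in the count table were chosen by name for their place in BMP signalling. Their values were not used in the choice, but earlier results of these data were known when it was made. Of the 9, 6 had enough counts to be tested among 13679 genes. MC3T3-E1 is a single wild-type line of pre-osteoblasts from mouse calvarial bone. All cells, Control included, had first been differentiated with dexamethasone, ascorbic acid and the organic phosphate β-glycerophosphate (BGP). The study's methods have BGP withdrawn for the last week of culture, whereas the sample labels describe BGP in the medium up to the treatment. Treatment started at day 27 and lasted 16 h, with 4 mM BGP, with 4 mM NaHPO4 (a mixture of sodium phosphates, inorganic) or without added phosphate (Control), and there were 3 RNA sequencing libraries per condition. By the study's methods, the culture medium itself held some inorganic sodium phosphate in every condition, Control included. The labels do not say whether the 3 libraries came from separate cultures, so p-values measure the spread between these libraries only.

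Bone morphogenetic proteins are secreted ligands that bind pairs of serine/threonine kinase receptors and lead to phosphorylation of SMAD1, SMAD5 and SMAD9, which enter the nucleus with SMAD4. The ID genes are classical direct targets of these SMADs. ID proteins lack a DNA-binding region and hold E proteins and their partners in dimers that cannot bind DNA, and in bone the pathway is known for driving osteoblast differentiation. SMAD6 is an inhibitory SMAD that is induced by BMP signalling and dampens it, so the ID genes and *Smad6* are commonly read as its transcriptional output.

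Total counts per library ranged from 21390839 to 28234404, and the 10 most counted genes held 15.9% to 17.7% of a library. All 13 osteoblast and osteocyte markers were tested, and their summed level was 104548 to 118753 CPM (a gene's count per 1e+06 counts of its library, with library totals scaled by TMM, edgeR's trimmed mean of M-values), lowest with NaHPO4. The collagen genes *Col1a1* and *Col1a2* made up most of this sum. Of the other cell types, endothelial markers summed to at most 0.187 CPM, 5 of 7 adipocyte and 5 of 6 muscle markers were under 1 CPM, and the 6 macrophage and haematopoietic markers summed to 23.8 to 33.1 CPM. Most of the last sum was *Lyz2*, at a mean of 21.9 to 23.4 CPM, and *Cd14*, at 4.88 to 5.79 CPM, while *Ptprc*, which marks haematopoietic cells, had 1 count over all libraries. The cells are a bulk sample, in which fewer cells of a type and less RNA per cell cannot be told apart.

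In edgeR's quasi-likelihood test 0 of the 6 tested genes passed a false discovery rate (FDR) of 0.05 with BGP versus Control, beside 2.53% of all tested genes, 0 of 6 with NaHPO4 versus Control, beside 7.38%, and 0 of 6 in BGP versus NaHPO4, beside 5.38%. *Id3* was the most abundant per length, *Smad6*, *Bmp4* and *Id2* followed at similar levels, *Id1* and *Id4* were lower, and *Bmp2*, *Bmp3* and *Bmp6* were at or close to 0 counts. The differences between conditions were within a log2 fold change (log2FC) of 0.16 for every tested gene except *Id4*, whose libraries varied most.

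Among the ligands, *Bmp4* was the one expressed at a level that could be tested. *Bmp4* (ENSMUSG00000021835), which encodes an osteogenic ligand, lies on the minus strand of chr14:46620250-46636745 (GRCm39) with 4 exons in its canonical transcript. Its level was 103, 88.8 and 97.0 CPM in the 3 Control libraries, 97.3, 99.9 and 89.7 CPM in the BGP libraries and 98.9, 99.7 and 99.6 CPM in the NaHPO4 libraries. The conditions overlapped, and the Control libraries alone spanned the range of all 9. The log2FC was -0.01 for BGP versus Control (95% interval -0.10 to 0.08, FDR = 0.957) and 0.05 for NaHPO4 versus Control (-0.04 to 0.14, FDR = 0.631), where FDR is the p-value adjusted over all tested genes by the Benjamini-Hochberg method. BGP versus NaHPO4 gave a log2FC of -0.06 (-0.15 to 0.04, FDR = 0.598). Of the exon bases of *Bmp4*, 22.5% overlap the gene *Gm15222* on the opposite strand, which had 326 counts over the 9 libraries beside 21284 of *Bmp4*. Of the 50-base windows of *Bmp4* transcripts, 24.6% occur in transcripts of other genes on either strand, 920 genes in all.

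*Bmp2* (ENSMUSG00000027358, chr2:133394079-133404816), which encodes another osteogenic ligand, had 0 counts in each of the 9 libraries. A count of 0 allows a group level of up to 0.0430 CPM for Control, 0.0443 CPM for BGP and 0.0368 CPM for NaHPO4, taking 3 counts over the group as the limit, which covers counting error only. *Bmp3* (ENSMUSG00000029335, chr5:99002268-99032255), whose product is known as a BMP that opposes the osteogenic members, had 5, 6 and 1 counts in Control, 3, 0 and 3 with BGP, and 4, 2 and 3 with NaHPO4. Pooled over a condition, its level was 0.172 CPM for Control (exact Poisson 95% interval 0.0889 to 0.300), 0.0886 CPM for BGP (0.0325 to 0.193) and 0.110 CPM for NaHPO4 (0.0505 to 0.209), and the 3 intervals overlapped. *Bmp6* (ENSMUSG00000039004, chr13:38529065-38684280), a ligand that also acts in iron homeostasis, had 0, 0 and 1 counts in Control, 2, 0 and 1 with BGP, and 0, 6 and 1 with NaHPO4. Of its 11 counts over all libraries, 6 came from the second NaHPO4 library, and 5.77% of its exon bases overlap *Txndc5* on the opposite strand, which had 78378 counts. Differences between conditions in these 3 ligands were not detectable at this depth.

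*Smad6* (ENSMUSG00000036867), the inhibitory SMAD, lies on the minus strand of chr9:63860341-63929793 with 4 exons. It had 77.7, 74.6 and 76.6 CPM in the 3 Control libraries, 75.2, 70.1 and 66.3 CPM in the BGP libraries and 74.9, 67.9 and 70.3 CPM in the NaHPO4 libraries. Means were lower with both phosphates, at 70.5 ± 4.49 CPM (SD, n = 3) with BGP and 71.0 ± 3.55 CPM with NaHPO4 beside 76.3 ± 1.60 CPM in Control, but the first library of each treatment lay among the Control libraries. The log2FC was -0.11 ± 0.0472 (SE) for BGP versus Control, with an unadjusted p of 0.0217 and an FDR of 0.257. NaHPO4 versus Control gave -0.10 ± 0.0464, with an unadjusted p of 0.0331 and an FDR of 0.200, the lowest adjusted value of any gene in the set. Both comparisons use the same 3 Control libraries, so they are not separate observations of Control. BGP versus NaHPO4 gave a log2FC of -0.01 (95% interval -0.11 to 0.08, FDR = 0.952). No 50-base window of *Smad6* transcripts occurred in another gene.

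The 4 ID genes differed from each other by far more than any of them differed between conditions. *Id3* (ENSMUSG00000007872), on the plus strand of chr4:135870808-135873066 with 3 exons, had 314, 285 and 292 CPM in the 3 Control libraries, 282, 291 and 272 CPM in the BGP libraries and 288, 277 and 294 CPM in the NaHPO4 libraries. The first Control library was the highest, and the other two lay within the range of the treated libraries. Its log2FC was -0.08 ± 0.0370 for BGP versus Control (unadjusted p = 0.0483, FDR = 0.368), -0.05 ± 0.0368 for NaHPO4 versus Control (FDR = 0.476) and -0.02 for BGP versus NaHPO4 (95% interval -0.10 to 0.05, FDR = 0.827).

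*Id2* (ENSMUSG00000020644), on the minus strand of chr12:25143798-25147282 with 3 exons, had 55.2, 60.3 and 55.3 CPM in the 3 Control libraries, 54.1, 56.3 and 56.0 CPM in the BGP libraries and 63.1, 58.3 and 57.8 CPM in the NaHPO4 libraries. All 3 BGP libraries were below all 3 NaHPO4 libraries, while Control overlapped both. This was the 1 value of the 18 (6 genes in 3 comparisons) in which libraries of the conditions did not overlap, and 21.2% of all tested genes did not overlap in that comparison (18.5% in BGP versus Control, 23.2% in NaHPO4 versus Control). BGP versus NaHPO4 gave a log2FC of -0.11 ± 0.0484, with an unadjusted p of 0.0342 and an FDR of 0.244. Against Control the log2FC was -0.04 for BGP (95% interval -0.14 to 0.06, FDR = 0.821) and 0.07 for NaHPO4 (-0.03 to 0.17, FDR = 0.452). Of its 50-base transcript windows 31.7% occur in other genes on either strand. These windows lay in transcripts of 3 other genes. *Gm36287*, with the most matches summed over its transcripts, covers 13.4% of the exon bases of *Id2* on the opposite strand. It had 4 counts over the 9 libraries beside 12601 of *Id2*. *Gm59395*, which was not among the counted genes, covers 22.8% of the exon bases of *Id2* on the opposite strand.

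*Id1* (ENSMUSG00000042745), on the plus strand of chr2:152566218-152579544 with 2 exons, had 13.1, 13.7 and 14.3 CPM in the 3 Control libraries, 12.3, 14.7 and 12.8 CPM in the BGP libraries and 12.8, 11.0 and 13.3 CPM in the NaHPO4 libraries. The conditions overlapped, with the lowest value in the second NaHPO4 library and the highest in the second BGP library. The log2FC was -0.05 for BGP versus Control (95% interval -0.25 to 0.14, FDR = 0.873), -0.16 for NaHPO4 versus Control (-0.35 to 0.03, FDR = 0.369) and 0.10 for BGP versus NaHPO4 (-0.09 to 0.29, FDR = 0.655).

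*Id4* (ENSMUSG00000021379), on the plus strand of chr13:48414558-48419502 with 3 exons, was the least abundant of the tested genes, at 81, 84 and 104 counts in Control, 142, 94 and 86 with BGP, and 117, 100 and 129 with NaHPO4. On the CPM scale these were 3.79, 3.65 and 4.09 in Control, 6.40, 4.22 and 3.70 with BGP, and 4.26, 3.51 and 5.04 with NaHPO4. The first BGP library stood above all others, and the other two BGP libraries lay within the range of the other conditions. BGP versus Control gave a log2FC of 0.31 ± 0.179 (95% interval -0.06 to 0.67, FDR = 0.481), which was 0.04 without that library (FDR = 0.972). NaHPO4 versus Control gave 0.14 ± 0.177 (-0.22 to 0.50, FDR = 0.730), which was 0.01 without the third NaHPO4 library and 0.27 without the second. BGP versus NaHPO4 gave 0.16 (-0.19 to 0.51, FDR = 0.712), which was -0.10 without the first BGP library.

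**Figure D1:**
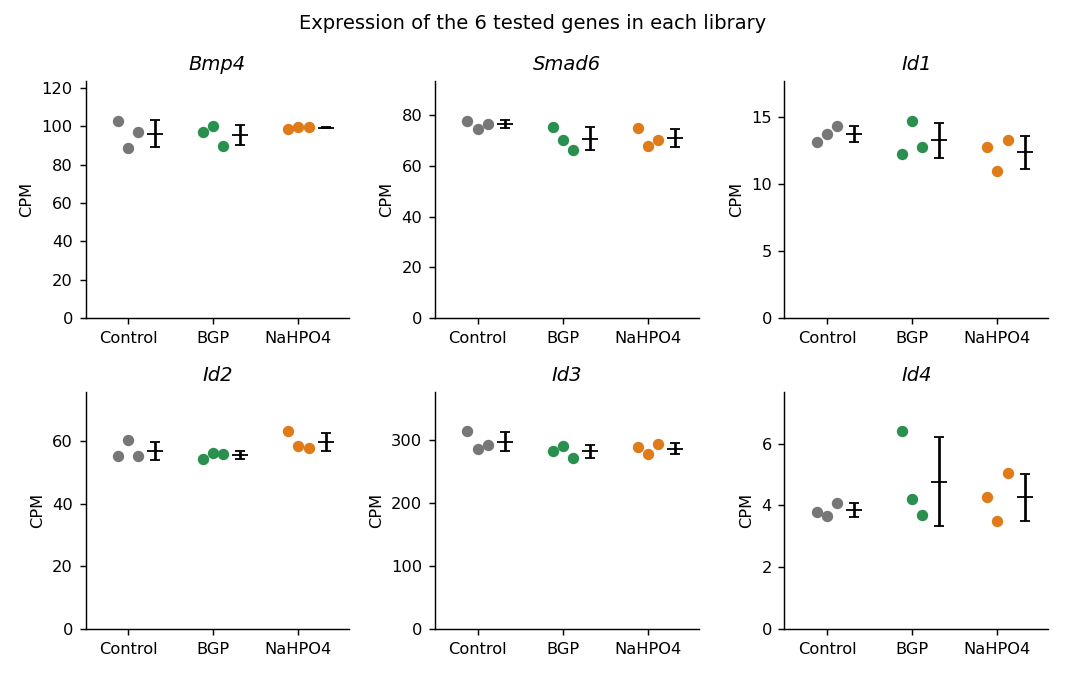
Level of each tested gene (CPM, linear axes from 0) in each of the 9 libraries, by condition, with points for libraries and bars for mean and SD (n = 3). The conditions overlap for every gene except *Id2* between BGP and NaHPO4, and the first BGP library of *Id4* stands apart at 6.40 CPM.

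Because the ID genes are SMAD targets, the sequence before their start is shown for the 3 of the 4 that the RefSeq promoter table holds. These are the 250 bases before the annotated start in the direction of the gene (GRCm38.p6, an earlier build than that of the counts), at chr12:25096093-25096342 on the minus strand for *Id2*, chr4:136143572-136143821 on the plus strand for *Id3* and chr13:48260866-48261115 on the plus strand for *Id4*. Capitals mark matches to GGCGCC, a GC-rich SMAD-binding element, or to TGACG, a cyclic AMP response half-site, which reads CGTCA where it lies on the opposite strand.
Id2: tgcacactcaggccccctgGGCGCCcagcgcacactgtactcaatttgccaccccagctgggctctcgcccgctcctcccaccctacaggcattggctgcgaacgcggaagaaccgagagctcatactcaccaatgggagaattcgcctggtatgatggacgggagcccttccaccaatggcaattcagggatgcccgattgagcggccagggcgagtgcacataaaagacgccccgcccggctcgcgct
Id3: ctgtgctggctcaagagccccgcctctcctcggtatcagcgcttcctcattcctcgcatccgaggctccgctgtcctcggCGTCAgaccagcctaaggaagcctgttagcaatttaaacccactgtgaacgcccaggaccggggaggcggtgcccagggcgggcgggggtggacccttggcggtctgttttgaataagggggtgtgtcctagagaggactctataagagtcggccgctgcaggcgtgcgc
Id4: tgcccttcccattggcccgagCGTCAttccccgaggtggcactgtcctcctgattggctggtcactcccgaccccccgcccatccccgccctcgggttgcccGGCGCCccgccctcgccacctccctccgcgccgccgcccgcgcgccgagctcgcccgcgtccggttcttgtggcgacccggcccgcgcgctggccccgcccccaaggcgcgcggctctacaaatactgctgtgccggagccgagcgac
GGCGCC occurred in the promoters of *Id2*, 231 bases before the start, and of *Id4*, 148 bases before it, and 9.59% of the 32851 promoters in the table hold it on either strand. The longer BMP response element, GGCGCC followed by 5 bases and GTCT, which contains the shorter motif, matched none of the 6 promoters of the set (*Bmp4*, *Bmp6*, *Smad6*, *Id2*, *Id3* and *Id4*) and 0.0700% of all. TGACG was found on the opposite strand in *Id3*, 170 bases before the start, and in *Id4*, 229 bases before it, and 17.8% of promoters hold it. GTGGGCG, the core recognised by EGR factors, was found in *Bmp4*, 40 bases before its start, and in 7.02% of promoters. The G and C content was 62.8% for *Id2* and *Id3*, 75.6% for *Id4*, 66.8% for *Smad6* and 63.2% for *Bmp4*, beside a median of 52.4% over all promoters. These matches describe the letters of the windows only.

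To compare levels between genes, CPM were divided by the length of all exons of a gene in kilobases (CPM per kb). In Control, *Id3* had 166 ± 8.39 CPM per kb (SD, n = 3), *Smad6* 21.5 ± 0.452, *Bmp4* 18.4 ± 1.37, *Id2* 16.3 ± 0.835, *Id1* 7.74 ± 0.336 and *Id4* 0.836 ± 0.0490. The level of *Id3* was 7.71 times that of *Smad6* in Control, 7.91 times with BGP and 7.99 times with NaHPO4. The order of these 6 genes was the same in the 3 conditions. The place of *Smad6* above *Bmp4* rests on the division by length, 3.55 kb for *Smad6* and 5.24 kb for *Bmp4*. Undivided, the Control means were 76.3 CPM for *Smad6* and 96.2 CPM for *Bmp4*. The SDs cover the spread between libraries and not the choice of length. In Control the libraries of *Bmp4* and *Id2* overlapped, so these neighbours did not differ beyond their spread, and with BGP the same held for *Smad6* (19.9 ± 1.27) and *Bmp4* (18.2 ± 1.01). *Bmp3* reached 0.0240 CPM per kb in Control, 0.0119 with BGP and 0.0150 with NaHPO4, and *Bmp6* 0.00335, 0.0113 and 0.0212. These 2 ligands overlapped in every condition. Within the sum of the 4 ID genes per kb, *Id3* made up 86.9% ± 0.955 in Control, 86.6% ± 0.288 with BGP and 86.5% ± 0.426 with NaHPO4, followed by *Id2* at 8.58%, 8.77% and 9.27%.

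**Figure D2:**
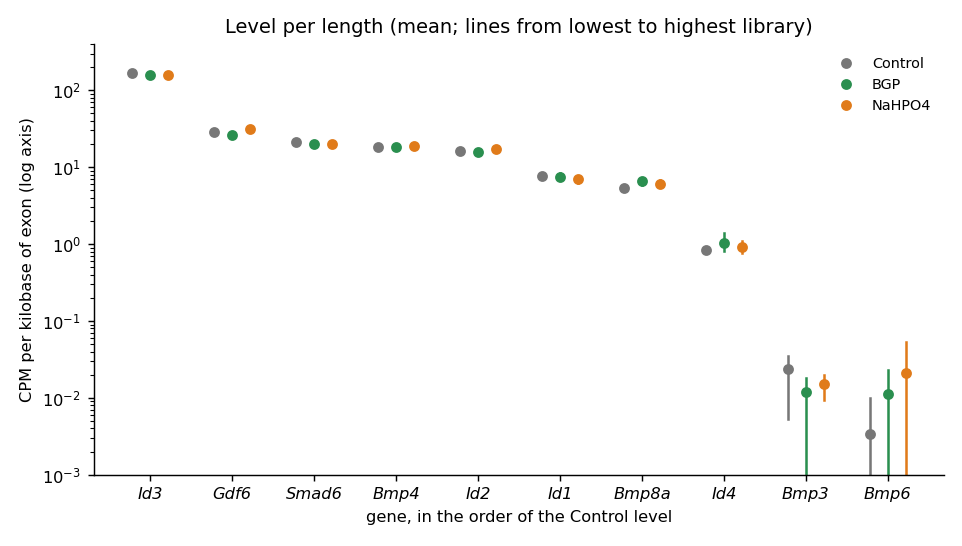
Level per length (CPM per kb, log axis) of the set and of the ligands *Gdf6* and *Bmp8a* in each condition, with points for the mean of 3 libraries and lines from the lowest to the highest library, which run to the foot of the log axis where a library has 0 counts (*Bmp2*, at 0 counts, is not drawn). *Id3* lies 7.71 to 7.99 times above *Smad6*, and *Bmp3* and *Bmp6* lie far below *Id4*.

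None of the 18 values above passed an FDR of 0.05. By the study's rule for differentially expressed genes (DEGs), which adds an absolute log2FC above 0.5, the counts were 0 of 6 in each comparison, beside 0.556%, 0.716% and 0.585% of all genes. DESeq2 and limma also gave 0 in each comparison. An unadjusted p below 0.05 was reached by 2 of 6 genes with BGP (13.4% of all tested), 1 of 6 with NaHPO4 (19.9%) and 1 of 6 between the phosphates (16.9%), which were the values of *Smad6*, *Id3* and *Id2* given above. The median absolute log2FC of the 6 genes was 0.0647, 0.0868 and 0.0794 in the 3 comparisons, beside 0.0709, 0.0814 and 0.0758 over all tested genes.

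How large a change the data could have missed differed between the genes. For the 5 genes other than *Id4*, all 15 of the 95% intervals lay between -0.35 and 0.29 on the log2 scale, so that a change as large as the DEG limit of 0.5 was outside each of them. The 3 intervals of *Id4* reached past 0.5. The SD of log2 CPM within conditions was 0.0565 for *Id3*, 0.0609 for *Id2*, 0.0693 for *Smad6*, 0.0781 for *Bmp4*, 0.121 for *Id1* and 0.281 for *Id4*, beside a median of 0.0843 over all tested genes.

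**Figure D3:**
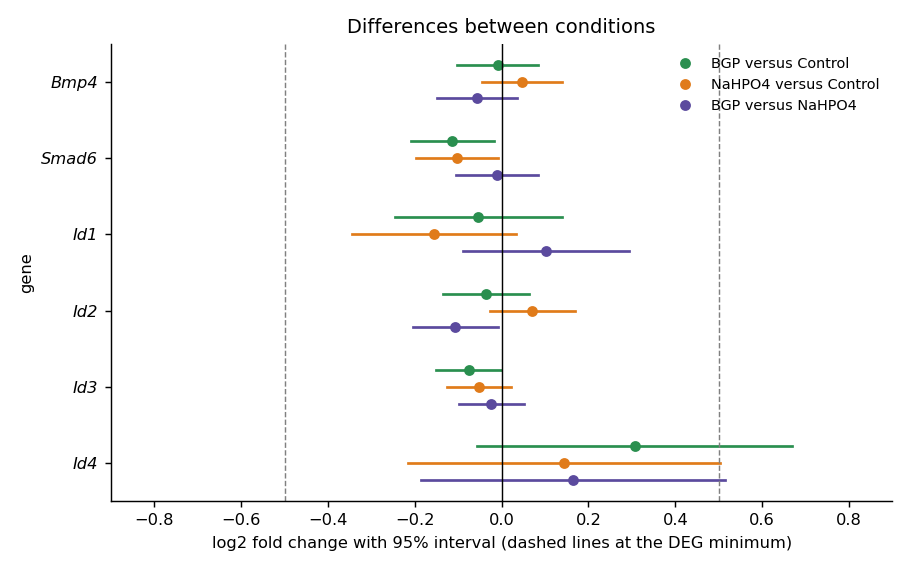
Log2FC of the 6 tested genes in the 3 comparisons, with points for edgeR's estimates, bars for 95% intervals and dashed lines at the DEG limits of -0.5 and 0.5. Only the 3 intervals of *Id4* cross a limit, and none of the estimates passed an FDR of 0.05.

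The covariation of the 6 genes across the 9 libraries was described for 15 pairs. Pearson's r of log2 CPM lay between -0.32 and 0.67, and no pair had an adjusted p below 0.05. The highest was *Smad6* with *Id3*, with r = 0.675 (exact permutation p = 0.0381, 0.561 after Benjamini-Hochberg adjustment over the 15 pairs) and Spearman's rho = 0.633 (exact permutation p = 0.0760, adjusted 0.643). Without the 2 libraries farthest from the median of *Smad6*, r was 0.299, and within conditions it was 0.50. *Bmp4* with *Id3* had r = 0.632 (exact permutation p = 0.0748, adjusted 0.561) and rho = 0.50 (exact permutation p = 0.178, adjusted 0.888). For that pair r was 0.680 without the 2 libraries farthest from the median of *Bmp4* and 0.844 within conditions. *Smad6* with *Id4* had r = 0.242 (exact permutation p = 0.553, adjusted 0.982) over all libraries, -0.22 without the 2 farthest and 0.758 within conditions. The rho of this pair was 0.35 (exact permutation p = 0.359, adjusted 0.895). Over the 15 pairs r within conditions ranged from -0.56 (*Bmp4* with *Id2*) to 0.844 (*Bmp4* with *Id3*), and it was not tested.

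The other genes of the BMP pathway were taken from a list of 57 genes ordered by role, of which 47 were tested. The list was drawn up with earlier results of these data known, and the study had reported *Skil*, which is on it, as higher with BGP. With BGP versus Control 3 of 47 (6.38%) passed an FDR of 0.05, all higher (1.86% of all tested genes were higher and 0.665% lower). With NaHPO4 versus Control 4 of 47 (8.51%) passed, all lower (3.95% of all tested genes lower, 3.43% higher). In BGP versus NaHPO4 7 of 47 (14.9%) passed, 6 of them higher with BGP (3.33% of all tested genes) and 1 lower (2.05%). The shares over all tested genes were the 2.53%, 7.38% and 5.38% above, and the median log2FC of the list was 0.05, 0.00 and 0.07 beside -0.0043, 9.75e-05 and -0.0018 over all genes. In this fit, 0 of the 9 tested receptors and co-receptors and 0 of the 7 SMADs and SMAD ubiquitin ligases passed in any comparison. The nearest was *Eng*, which encodes the co-receptor endoglin, at 4.25, 5.09 and 4.02 CPM in the Control libraries and 3.02, 3.55 and 2.38 CPM in the NaHPO4 libraries. The NaHPO4 libraries were all below Control, with a log2FC of -0.57 (FDR = 0.0546), and *Eng* passed under 7 of 18 alternatives, among them the replicate block (-0.58, FDR = 0.0257), the likelihood ratio test (FDR = 0.0235) and no filter on low counts (FDR = 0.0141). With libraries scaled by total counts alone, the 4 calls with NaHPO4 became 2 higher (*Gdf6* and the receptor gene *Bmpr2*) and 2 lower.

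**Figure D4:**
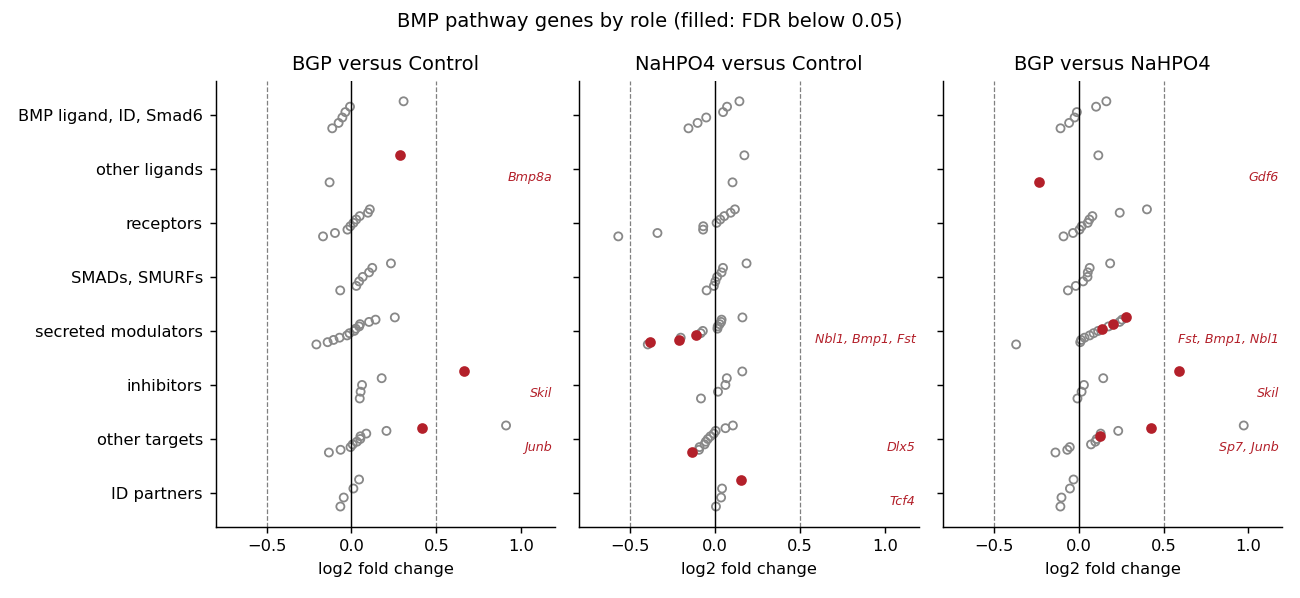
Log2FC of the tested BMP pathway genes and ID partners in the 3 comparisons, by role, with a point for each gene, filled and named in the row where its FDR was below 0.05, and dashed lines at -0.5 and 0.5. Filled points lie among the other ligands, secreted modulators, inhibitors, other targets and, for *Tcf4*, the ID partners, and none lies in the rows of the 6 genes above, the receptors or the SMADs.

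Beyond *Bmp4*, the tested ligands were *Gdf6* and *Bmp8a*. *Gdf6*, a growth and differentiation factor of the BMP family, was higher per length in Control than *Bmp4*, at 29.0 ± 0.374 CPM per kb, and *Bmp8a* stood at 5.39 ± 0.285. *Gdf6* had 105, 103 and 102 CPM in the 3 Control libraries, 92.7, 95.6 and 95.1 CPM in the BGP libraries and 112, 107 and 114 CPM in the NaHPO4 libraries. The BGP libraries were all below Control and the NaHPO4 libraries all above it. BGP versus NaHPO4 gave a log2FC of -0.23 (FDR = 8.53e-05), while neither phosphate passed against Control. *Bmp8a* had 32.1, 28.8 and 30.5 CPM in the 3 Control libraries, 40.4, 38.2 and 33.1 CPM in the BGP libraries and 38.2, 31.8 and 33.0 CPM in the NaHPO4 libraries. It was higher with BGP than in Control (log2FC 0.29, FDR = 0.0152), a call that was lost without Control replicate 2 (FDR = 0.0967), BGP replicate 1 (0.174) or BGP replicate 2 (0.0903). The remaining 7 ligands of the list were not tested, and *Bmp7*, *Bmp10* and *Gdf7* had 0 counts in every library.

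Of 13 secreted antagonists and modulators, 3 were lower with NaHPO4 than in Control and lower than with BGP. *Nbl1* encodes a BMP antagonist of the DAN family and had 268, 245 and 260 CPM in the 3 Control libraries, 245, 241 and 233 CPM in the BGP libraries and 202, 196 and 194 CPM in the NaHPO4 libraries. Its NaHPO4 libraries were the lowest of all, with a log2FC of -0.38 versus Control (FDR = 6.90e-10), and BGP versus NaHPO4 gave 0.28 (FDR = 1.25e-06). *Bmp1*, which encodes a metalloproteinase that processes procollagen and the BMP antagonist chordin and is no BMP ligand, had 298, 291 and 297 CPM in the 3 Control libraries, 298, 285 and 295 CPM in the BGP libraries and 258, 248 and 258 CPM in the NaHPO4 libraries. Its log2FC was -0.21 for NaHPO4 versus Control (FDR = 2.11e-05) and 0.20 for BGP versus NaHPO4 (FDR = 8.05e-05).

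*Fst* encodes follistatin, which binds activins and some BMPs. It had 302, 304 and 297 CPM in the 3 Control libraries, 303, 315 and 302 CPM in the BGP libraries and 267, 284 and 285 CPM in the NaHPO4 libraries. The log2FC was -0.11 for NaHPO4 versus Control (FDR = 0.0329) and 0.14 for BGP versus NaHPO4 (FDR = 0.00926). The first call was lost with total counts, with limma and without Control replicate 1 (FDR = 0.107), 2 (0.0933) or 3 (0.0509) or NaHPO4 replicate 1 (0.182) or 2 (0.0507). The second was lost with total counts and without BGP replicate 2 (0.0739) or NaHPO4 replicate 1 (0.0651).

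Of 5 membrane and nuclear inhibitors, *Skil* was higher with BGP than in Control and than with NaHPO4. *Skil* encodes SnoN, a nuclear co-repressor that binds SMADs and is best known as a target and inhibitor of TGF-β signalling. It had 29.2, 26.0 and 29.6 CPM in the 3 Control libraries, 46.4, 46.7 and 41.1 CPM in the BGP libraries and 28.3, 30.4 and 30.3 CPM in the NaHPO4 libraries. The BGP libraries were above all others, with a log2FC of 0.66 versus Control (FDR = 8.59e-10), which met the DEG rule, and 0.59 versus NaHPO4 (FDR = 1.01e-08).

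Among 11 other target genes, *Junb*, *Sp7* and *Dlx5* passed in at least 1 comparison. *Junb*, an AP-1 transcription factor gene induced by many stimuli besides BMPs, had 58.6, 60.0 and 62.2 CPM in the 3 Control libraries, 87.2, 80.1 and 74.4 CPM in the BGP libraries and 62.6, 54.3 and 63.4 CPM in the NaHPO4 libraries. Its BGP libraries were the highest, with a log2FC of 0.42 versus Control (FDR = 1.62e-06) and 0.42 versus NaHPO4 (FDR = 7.18e-07). *Dlx5*, a homeobox gene of osteoblasts, had 110, 115 and 118 CPM with NaHPO4 beside 125, 125 and 127 CPM in Control. Its log2FC of -0.14 (FDR = 0.0142) did not pass with total counts or without Control replicate 3 (FDR = 0.0636) or NaHPO4 replicate 1 (0.0819). *Sp7*, which encodes the osteoblast factor osterix, had 570, 568 and 560 CPM with BGP beside 527, 523 and 504 CPM with NaHPO4. Its log2FC of 0.13 (FDR = 0.00994) did not pass with total counts or without BGP replicate 1 (FDR = 0.0548) or NaHPO4 replicate 3 (0.0717).

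Of 4 tested chondrocyte markers, *Col2a1* passed in each comparison and the other 3, *Sox9*, *Col10a1* and *Matn3*, passed in none. The list had levels that summed to 249.9 to 308 CPM over the Control libraries, 341 to 447 CPM over BGP and 187 to 267 CPM over NaHPO4. *Col2a1* was higher with BGP (log2FC 0.50, FDR = 0.000754) and lower with NaHPO4 (-0.45, FDR = 0.00141) than in Control, while *Sox9* had a log2FC of 0.03 and -0.07 and *Matn3* of -0.31 and -0.16. *Col10a1* had a log2FC of 1.27 with BGP (FDR = 0.321) and 0.81 with NaHPO4 (FDR = 0.501). It rested on 17 counts in Control, 40 with BGP and 35 with NaHPO4. The cartilage genes *Acan* and *Matn1* had 3 and 0 counts over the 9 libraries. The osteoblast and osteocyte markers summed to 111457 to 118753 CPM in Control, 112420 to 117875 CPM with BGP and 104548 to 110696 CPM with NaHPO4, so that the NaHPO4 libraries lay below all others. Most of this sum was *Col1a1* and *Col1a2*, at means of 43285 and 56380 CPM in Control, so it does not describe the 13 markers jointly. With NaHPO4 versus Control 5 of these 13 markers passed as lower (3.95% of all tested genes) and 2 as higher (3.43%). The largest fall was in *Sost* (log2FC -1.68, FDR = 0.00272), which met the DEG rule, at 97 counts in Control and 35 with NaHPO4. The other lower markers were *Col1a1* (-0.22, FDR = 2.47e-05), *Alpl* (-0.21), *Col1a2* (-0.17) and *Bglap* (-0.15). The higher markers, *Dmp1* (2.19) and *Spp1* (1.97), also met the DEG rule. These changes with NaHPO4 were in the same comparison as the lower values of *Nbl1*, *Bmp1*, *Fst* and *Dlx5*. With BGP versus Control 3 of the 13 markers passed as higher (1.86% of all tested genes) and 0 as lower (0.665%). They were *Dmp1* (log2FC 2.86) and *Spp1* (1.48), which met the DEG rule, and *Phex* (0.26). In BGP versus NaHPO4 6 of the 13 passed as higher with BGP (3.33%) and 1 as lower (2.05%). The part of either marker list in the results on *Skil*, *Junb*, *Gdf6*, *Dlx5* and the secreted modulators was not tested.

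ID proteins act through the basic helix-loop-helix factors they bind, and 4 of 7 such partner genes were tested. None passed with BGP versus Control or between the phosphates, and *Tcf4*, which encodes the E protein E2-2, passed with NaHPO4 versus Control. It had 114, 118 and 116 CPM in the 3 Control libraries, 123, 117 and 120 CPM in the BGP libraries and 130, 126 and 131 CPM in the NaHPO4 libraries. The NaHPO4 libraries were above all others, with a log2FC of 0.15 (FDR = 0.00581). *Hand1* and *Hand2* had 0 counts in every library, and *Twist2* had 53 counts over the 9.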

How the data were processed

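RNA sequencing of 9 libraries was analysed, with groups taken from the sample labels. The authors deposited unnormalized counts per Ensembl gene (GRCm39), made from stranded poly(A) libraries. The aligner, the counter and the use of strand in counting are not given in the sources used here, so reads of overlapping genes on opposite strands cannot be told apart with certainty. The authors also deposited a TMM-scaled signal table, which was used for 1 alternative only. There were 0 columns of other samples.

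Genes were filtered with filterByExpr (count minimum 10), scaled by TMM (factors 0.989 to 1.02) and tested with edgeR 4.0.16 (glmQLFit, glmQLFTest) in R 4.3.3, with all 9 libraries in 1 fit and Benjamini-Hochberg adjustment over 13679 genes. Standard errors and 95% intervals of log2FC come from the same fit. At this depth 10 counts equal 0.351 to 0.467 CPM, and intervals on counts cover counting error only. The procedure was tested on simulated data. Exon lengths and overlaps come from a later GENCODE annotation of GRCm39. Genes named are all 9 of the set and every gene of the pathway and partner lists past an FDR of 0.05 in any comparison. Any other gene was named after its values had been seen. The set and the lists were chosen with earlier results of these data known.

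Alternatives were edgeR's likelihood ratio test, DESeq2 1.42.0, limma 3.58.1 on log2(value + 1) of the TMM table, a fit of only the groups compared, DESeq2's size factors, total counts, no filter or 10 counts in every library, an FDR of 0.01, a replicate block, and each library left out.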

Additional observations from a re-analysis of the deposited data

How the results depend on the processing

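The number of the 6 tested BMP ligand, ID and *Smad6* genes past an FDR of 0.05 was 0 in each of the 3 comparisons under every alternative run, as was the number of DEGs. The lowest adjusted p of any such gene was 0.0785, for *Smad6* with NaHPO4 versus Control without NaHPO4 replicate 1. Of the 18 uncalled log2FC values, 6 changed sign under some alternative. The number of BMP pathway genes past the threshold with NaHPO4 versus Control was 4, and ranged from 2 (without Control replicate 3) to 5 when single libraries were left out, and was 2 at an FDR of 0.01; fewer samples and the stricter limit are part of these settings. The level of *Bmp4* with NaHPO4 was 19.2 CPM per kb with total counts in place of 19.0, and the other 26 levels moved by less than 1 SD.

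Deviations of libraries with the same replicate number had a mean r of 0.0127 over 9 pairs, 0 of them over 0.1. For different numbers the mean r was -0.0063 over 18 pairs, and 7 of 9 libraries correlated best with their own number. These correlations were small, and the numbers were not taken to pair the libraries in the main fit. With the replicate block, 0 of the 6 genes passed in each comparison, and the pathway counts were 3, 5 and 7 in place of 3, 4 and 7, the added call being the co-receptor gene *Eng* (log2FC -0.58, FDR = 0.0257).

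Depth limits what can be said of *Bmp2*, *Bmp3* and *Bmp6*, and the spread between libraries what can be said of *Id4*.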
